A study of Mus musculus with 8 samples.

Results

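The mRNA levels of 9 genes that carry the transforming growth factor beta (TGF-beta) signal were followed in neural stem cells (NSC) and astrocytes of WT and S89G-DMP1 mice. The set was chosen by symbol. It holds the ligands Tgfb1, Tgfb2 and Tgfb3, the latent TGF-beta binding proteins Ltbp1, Ltbp2 and Ltbp3, the receptors Tgfbr1 and Tgfbr2, and the signal transducer Smad3. All 9 genes were listed in both count tables, which held 47729 genes for the NSC and 40562 genes for the astrocytes.

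DMP1 (dentin matrix protein 1) is an acidic extracellular matrix protein that is made as a proteoglycan in brain. In S89G-DMP1 mice the serine that carries its glycosaminoglycan chain is replaced by glycine in every cell, and the FRT-flanked selection cassette was removed with FLP. All animals were C57BL/6, and the labels gave an age of 10 weeks for all 8 samples. NSC were grown from the sub-ventricular zone as neurospheres in DMEM/F12 with N2, with 3 WT and 3 S89G-DMP1 libraries. Astrocytes were grown from cortex in DMEM with 10% fetal bovine serum, with 1 library of each genotype, and the methods of the study describe mice of both genders for these cultures, at 3 months of age, which differs from the labels. The sources used here did not state whether the 3 NSC libraries of a genotype came from separate cultures or animals, so their p-values measure the spread between libraries, which may be technical.

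TGF-beta ligands are made as precursors. After cleavage by proprotein convertases, each mature dimer stays bound to its own propeptide, and this latent complex is held in the matrix by a latent TGF-beta binding protein that is itself tied to fibrillin microfibrils. Integrins and proteases release the ligand, which brings the type II receptor (Tgfbr2) and the type I receptor (Tgfbr1) together, and the activated type I receptor phosphorylates Smad3 and its close relative. In brain the pathway is known for quiescence of stem cells, for the reaction of astrocytes to injury and for the stability of vessels.

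The NSC libraries held 2354615 to 2588130 counted reads each, against 14008670 in the WT and 13016924 in the S89G-DMP1 astrocyte library. Dmp1, the altered gene, had 18, 21 and 16 reads in the WT NSC libraries and 6, 3 and 5 in the S89G-DMP1 NSC libraries (log2 fold change -1.90, SE 0.38, adjusted p = 0.00013, edgeR's quasi-likelihood test). It had 2 reads in the WT and 119 in the S89G-DMP1 astrocyte library. The replaced residue cannot be read from gene counts. The astrocyte library labelled WT was low in several defining markers of astrocytes. It had 90 reads for Gfap, 8 for Aqp4 and 8 for Slc1a3, against 901, 4051 and 3877 in the S89G-DMP1 library. Gja1, Sox9 and Fgfr3 were less low, with 1165, 539 and 237 reads in the WT and 1913, 1820 and 1777 in the S89G-DMP1 library. S100b went the other way, with 64 and 30 reads. Of 11 astrocyte markers counted, 9 were higher in the S89G-DMP1 library and 1 lower by at least 2-fold. A list of 12 fibroblast markers summed to 5571 CPM (reads per 1000000 counted, scaled between libraries) in the WT and 2136 CPM in the S89G-DMP1 library. The sex-linked genes also differed, with 12172 and 74 reads for Xist and 0 and 1277 reads for Ddx3y. Genotype, cell makeup, sex and library therefore cannot be told apart in the astrocyte comparison. In NSC 0 of 5 sex-linked genes passed the test by edgeR or DESeq2 (1 at an unadjusted p under 0.05 by edgeR). In bulk RNA, fewer cells of a type and less RNA per cell cannot be told apart.

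Tgfb2 and Ltbp1 were the members that changed in NSC. Tgfb2 encodes TGF-beta 2, the ligand needed for heart, eye and craniofacial development. It lies on the minus strand at chr1:186622792-186705989 (GRCm38, GENCODE M21). Ltbp1, which covalently binds the latent complex and secures it in the matrix, lies on the plus strand at chr17:75005568-75392512. Because both genes fell together, the bases before their starts are shown (RefSeq, GRCm38.p6, read 5' to 3' on the strand of the gene). The Tgfb2 window is chr1:186705990-186706239, 250 bases that end next to the start. Gm29491, an antisense gene with 9 reads over the 6 NSC libraries, lies across this window and shares 124 exonic bases with Tgfb2. The Ltbp1 window is chr17:75005279-75005479, 201 bases that end 50 bases before the first of its annotated RefSeq starts, where exonic sequence of another transcript begins. Capitals mark motifs found by an exact search of both strands.

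Tgfb2: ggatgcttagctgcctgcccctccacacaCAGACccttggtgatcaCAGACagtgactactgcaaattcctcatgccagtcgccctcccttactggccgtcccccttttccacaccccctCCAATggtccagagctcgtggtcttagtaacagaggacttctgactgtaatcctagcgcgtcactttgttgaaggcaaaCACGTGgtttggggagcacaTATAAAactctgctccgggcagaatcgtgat

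Ltbp1: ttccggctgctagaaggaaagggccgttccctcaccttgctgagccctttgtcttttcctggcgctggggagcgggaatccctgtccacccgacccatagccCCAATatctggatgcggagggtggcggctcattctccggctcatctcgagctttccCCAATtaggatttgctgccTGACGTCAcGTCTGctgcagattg

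Of all 32851 RefSeq promoter windows of 250 bases, 12.4% held the TATA box TATAAA and 6.02% the E-box CACGTG. In Tgfb2 the first began 31 bases before the start and the second 51 bases before it. Tgfb2 also had 1 CCAAT box, spelled as its name, present in 33.8% of all windows. It had 2 copies of the Smad box CAGAC, which occurred at least once in 42.2% of all windows. The Ltbp1 window held the cAMP response element TGACGTCA, which began 73 bases before the start and was found in 0.849% of windows of its length. It also held 2 CCAAT boxes and 1 Smad box, which 28.6% and 36.0% of such windows had. Another CCAAT box, on the other strand, began 53 bases before the start and was cut by the end of the window. That Smad box stood on the other strand, after the cAMP response element with 1 base between them, and no marked motifs overlapped. The AP-1 site TGACTCA occurred in 4.46% of all windows of 250 bases, the Sp1 site GGGCGG in 32.7%, and the Smad palindrome GTCTAGAC in 0.167%. Neither window held any of these last 3 in these letters. Such matches describe the sequence and were not tested as binding sites.

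In NSC, the level of Tgfb2 was 76.3, 69.9 and 84.7 CPM in the 3 WT libraries and 35.0, 39.8 and 34.1 CPM in the 3 S89G-DMP1 libraries. Every S89G-DMP1 library was below every WT library, as was the case for 16.0% of the 11194 genes tested. The means were 77.0 ± 7.39 CPM in WT, against 36.3 ± 3.08 CPM in S89G-DMP1 (SD, n = 3). Tgfb2 fell by 1.08 on the log2 scale (SE 0.11, 95% interval -1.31 to -0.86), with an adjusted p of 4.5e-12 by the quasi-likelihood test of edgeR, Benjamini-Hochberg adjusted. This is a 2.12-fold lower level. Its log2 fold change stood at position 88 from the lowest among the 11194 genes.

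Tgfb1 and Tgfb3 were too low in NSC for a test. Tgfb1, the ligand best known from platelets and immune cells, had 1, 0 and 2 reads in the WT libraries and 0 in each S89G-DMP1 library. With 3 reads in WT and none in S89G-DMP1, no fold is given. Tgfb3, a ligand known for palate closure, had 8, 8 and 11 reads in WT and 4, 8 and 7 reads in S89G-DMP1, and the groups overlapped. Fitted without the filter on low counts, Tgfb3 had a log2 fold change of -0.44 and an adjusted p of 0.650 (edgeR's quasi-likelihood test, Benjamini-Hochberg). A difference in Tgfb1 or Tgfb3 was not detectable at this depth.

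Nearly all ligand mRNA in NSC was therefore Tgfb2. On CPM divided by gene length in kilobases (CPM per kb), with the gene lengths behind the authors' astrocyte FPKM values, Tgfb2 made up 96.8% ± 0.91 of the ligand sum in WT and 96.3% ± 1.05 in S89G-DMP1 (SD, n = 3). The groups overlapped (exact permutation p = 0.5, two-sided). The ligand sum itself was 43.1, 39.2 and 48.3 CPM per kb in WT and 19.6, 22.8 and 19.5 CPM per kb in S89G-DMP1. These ranges were apart, with an exact two-sided permutation p of 0.1, the smallest that 3 against 3 libraries allow. The sum and the shares belong to 10 such measures compared, so no adjusted p could reach 0.05.

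**Figure D1:**
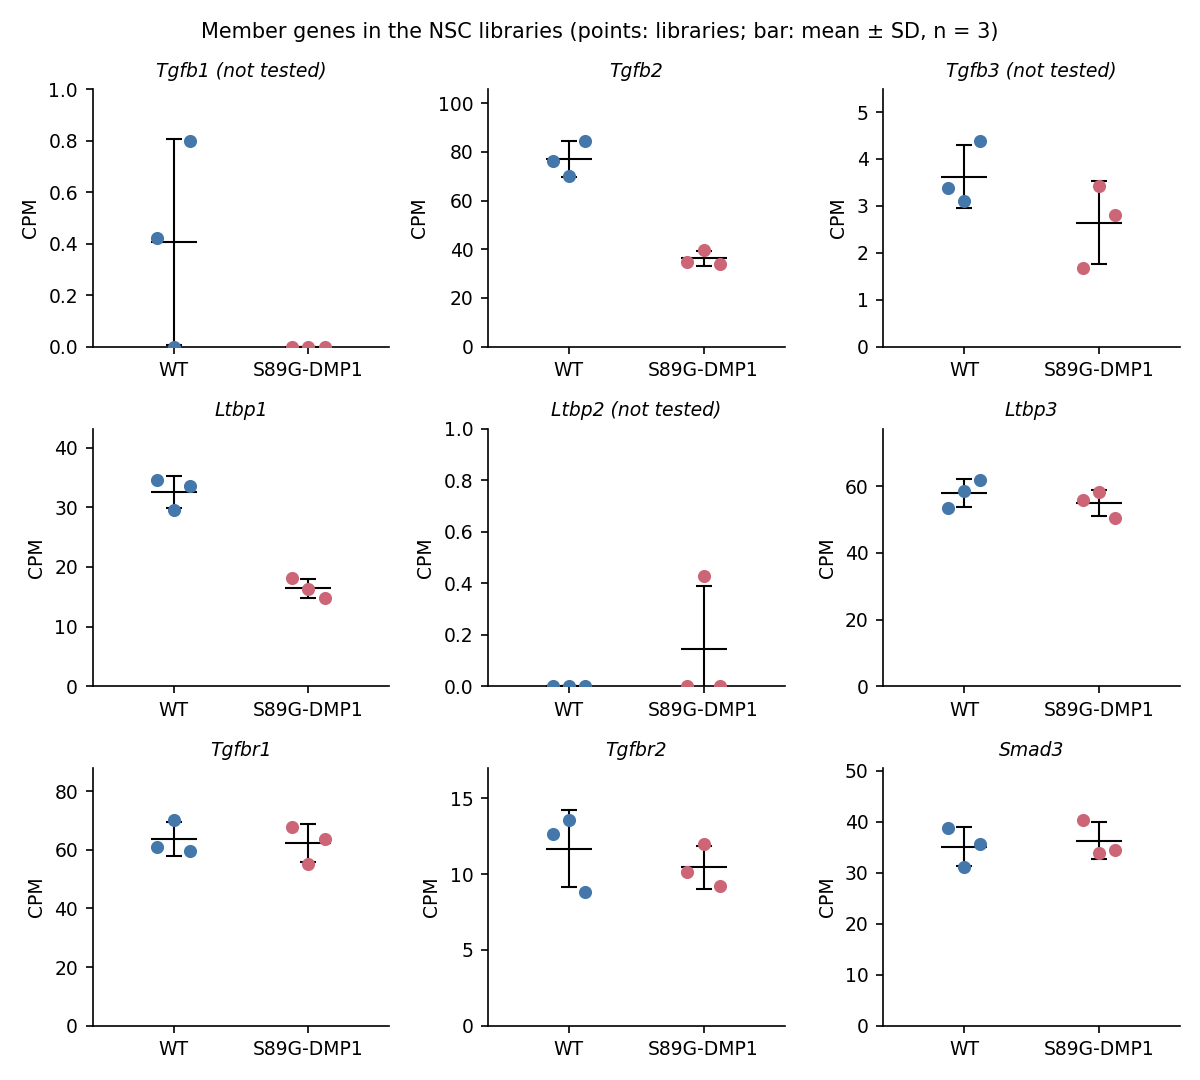
Level of each of the 9 genes in the NSC libraries, in CPM on linear axes that start at 0 (points are libraries, the black bar the mean ± SD, n = 3 per genotype). Tgfb2 fell from a mean of 77.0 to 36.3 CPM and Ltbp1 from a mean of 32.5 to one of 16.4 CPM with no overlap, while the points of the other genes overlap.

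Ltbp1 had 34.6, 29.5 and 33.5 CPM in the WT NSC libraries and 18.1, 16.3 and 14.8 CPM in the S89G-DMP1 libraries, so that the groups were again apart. The means were 32.5 ± 2.66 and 16.4 ± 1.64 CPM (SD, n = 3). Ltbp1 fell by 0.99 on the log2 scale (SE 0.16, 95% interval -1.30 to -0.67, adjusted p = 1.9e-06 by the quasi-likelihood test of edgeR, Benjamini-Hochberg adjusted), a 1.98-fold lower level. When the authors' TPM values were compared with limma on log2(TPM + 0.1), Ltbp1 had a log2 fold change of -1.01 with an adjusted p of 0.0551, just above the threshold of 0.05.

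Ltbp3, the binding protein known from bone and tooth growth, had 53.5, 58.7 and 61.9 CPM in WT NSC and 56.0, 58.2 and 50.5 CPM in S89G-DMP1 NSC. The groups overlapped, and the log2 fold change was -0.08 (95% interval -0.29 to 0.13, adjusted p = 0.67 by edgeR's quasi-likelihood test). Ltbp2, a microfibril protein of the family that does not bind latent TGF-beta, had 1 read over all 6 NSC libraries.

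The makeup of the summed mRNA of Ltbp1 to Ltbp3 also separated the groups. Ltbp4, a binding protein gene outside the chosen set, is not in these shares. It had 11.5 ± 1.09 CPM per kb in WT NSC and 12.2 ± 1.73 in S89G-DMP1 NSC (SD, n = 3). On the authors' TPM values its means were 55.4 and 58.3. Ltbp1 made up 47.9%, 41.8% and 43.6% of the summed CPM per kb of Ltbp1 to Ltbp3 in WT NSC and 31.5%, 28.3% and 29.5% in S89G-DMP1 NSC. All S89G-DMP1 shares were below all WT shares, with means of 44.4% ± 3.16 and 29.8% ± 1.65 (SD, n = 3; exact permutation p = 0.1, the smallest possible). Without the division by length the mean shares of Ltbp1 were 36.0% and 22.9%. The ratio of Tgfb2 to Ltbp1, on the log2 scale of CPM per kb, was 2.24 ± 0.10 in WT and 2.14 ± 0.18 in S89G-DMP1 (SD, n = 3; exact permutation p = 0.6), with overlapping libraries. The pair fell by similar amounts, but 3 libraries a group cannot show that the ratio was the same.

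The receptors and Smad3 showed no difference beyond the spread. Tgfbr1, the type I receptor kinase, had 61.1, 70.3 and 59.5 CPM in WT NSC and 67.8, 55.2 and 63.8 CPM in S89G-DMP1 NSC. Its log2 fold change was -0.03 (95% interval -0.24 to 0.17, adjusted p = 0.884 by edgeR's quasi-likelihood test). Tgfbr2, the ligand-binding type II receptor, was low, with 30, 35 and 22 reads in WT and 24, 28 and 23 in S89G-DMP1. Its log2 fold change was -0.16 with a wide interval of -0.62 to 0.29 (adjusted p = 0.70, edgeR's quasi-likelihood test). Smad3, the transcription factor phosphorylated by Tgfbr1, had 38.8, 31.1 and 35.5 CPM in WT and 40.4, 33.8 and 34.5 CPM in S89G-DMP1. Its log2 fold change was 0.05 (95% interval -0.21 to 0.31, adjusted p = 0.86, edgeR's quasi-likelihood test). None of these 3 intervals reaches a 2-fold fall.

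Thus 6 of the 9 members passed the filter on low counts in NSC, 2 fell and 0 rose. At an unadjusted p under 0.05 edgeR also gave 2 lower and 0 higher, as did DESeq2. Over all 11194 genes tested, 8.76% fell and 7.08% rose, 15.8% in all. None of the 6 lay above WT in every S89G-DMP1 library, as 14.8% of all genes did. The median log2 fold change was -0.12 over the 6 members tested and 0.00 over all genes. Leaving out any 1 library kept Tgfb2 between -1.16 and -1.01 and Ltbp1 between -1.06 and -0.92. Fibroblast and microglia markers were low in the NSC libraries. The 12 fibroblast markers summed to between 19.0 and 30.0 CPM in WT and between 18.8 and 21.5 CPM in S89G-DMP1, with 5 of them at 0 in every library. The 10 microglia markers summed to between 2.81 and 7.16 CPM over both genotypes, with 7 at 0 in every library. Of 2 fibroblast markers tested, 1 fell, Pdgfra, by 0.84 on the log2 scale (adjusted p = 0.00402, edgeR). The 11 mural cell markers summed to between 210 and 230 CPM in WT and between 142 and 184 CPM in S89G-DMP1. Of 2 tested, 1 fell, Cspg4, by 0.56 (adjusted p = 1.1e-08, edgeR). Of 5 neuron markers tested 1 fell, and of 8 neural progenitor markers tested 2 rose. The 12 astrocyte markers went up as a sum, from between 1976 and 2026 CPM in WT to between 2629 and 2690 CPM in S89G-DMP1, and 5 of the 9 tested rose. The part of these shifts in the fall of Tgfb2 and Ltbp1 was not tested.

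Per length, the order of the members in WT NSC began with Tgfb2 at 42.1 ± 4.05 CPM per kb, above Tgfbr1 at 25.4 ± 2.33 and Smad3 at 24.6 ± 2.71 (SD, n = 3). Tgfbr1 and Smad3 did not differ beyond their spread. Ltbp3 followed at 11.2 ± 0.81, Ltbp1 at 8.94 ± 0.73, Tgfbr2 at 2.46 ± 0.54 and Tgfb3 at 1.07 ± 0.20 CPM per kb. In S89G-DMP1 NSC, Smad3 at 25.4 ± 2.55 and Tgfbr1 at 24.8 ± 2.57 CPM per kb came first and overlapped, and Tgfb2 had moved to the third place at 19.8 ± 1.68. On the authors' own TPM values Tgfb2 was also first in WT, at a mean of 38.6 TPM, but Ltbp3 was second at 28.3 TPM. In S89G-DMP1 the order on TPM was Ltbp3 at 26.1, Tgfbr1 at 20.2, Tgfb2 at 18.3 and Smad3 at 16.4 TPM. The places of Ltbp3 and Smad3 thus differed between the count-based and the TPM values.

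The 3 tested genes whose pattern was most like that of Tgfb2 were Camk1, Dag1 and Fbxo46, with Pearson coefficients of 0.998, 0.997 and 0.997 between their log2 CPM and that of Tgfb2 over the 6 NSC libraries. Ltbp1 was at place 100 of 11193 with 0.976. All 6 libraries fall into 2 genotypes, which by themselves give high coefficients to any gene that fell, so these values are a description.

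The proteins that process, hold and release latent TGF-beta also moved in part. Of 22 genes on this list, 13 were tested in NSC, and 5 fell and 1 rose, against 8.76% and 7.08% of all genes. The median log2 fold change of the 13 was -0.14. DESeq2 called 3 of them lower and 0 higher, and either limma fit 1 lower and 0 higher. Over all genes DESeq2 called 424 lower, and the limma fits called 107 and 85 lower. Furin, a convertase that cleaves the TGF-beta precursors, had 57.7, 53.6 and 57.9 CPM in WT and 40.4, 39.8 and 36.9 CPM in S89G-DMP1. It fell by 0.53 on the log2 scale (SE 0.11, adjusted p = 0.00033, edgeR's quasi-likelihood test). Neither limma fit of the TPM values called Furin (adjusted p = 0.238 with a pseudocount of 1 and 0.237 with 0.1). Bmp1, a metalloproteinase that cleaves procollagens and Ltbp1, fell by 0.35 (SE 0.07, adjusted p = 0.0001, edgeR). The fibrillins Fbn2 and Fbn1, the microfibrils to which binding proteins attach, fell by 0.34 (adjusted p = 7.2e-07) and 0.33 (adjusted p = 0.0044) on the log2 scale in the same edgeR fit. On TPM, limma gave adjusted p-values of 0.0599 and 0.0617 for Fbn2 and of 0.27 and 0.267 for Fbn1, and DESeq2 gave 0.105 for Fbn1. Itgb1, the beta 1 integrin subunit, was the other gene that fell, by 0.14 (adjusted p = 0.0421, edgeR), and is named here after its value was seen. Lrrc32, which anchors latent TGF-beta at the cell surface, rose from 12, 9 and 14 reads to 21, 17 and 23 reads, a log2 fold change of 0.84 (SE 0.30, adjusted p = 0.0404, edgeR). Leaving out WT replicate 1, WT replicate 2, S89G-DMP1 replicate 1 or S89G-DMP1 replicate 3 ended the call of Lrrc32, with adjusted p-values of 0.0641, 0.203, 0.108 and 0.139 from edgeR, and DESeq2 gave 0.361. The call of Itgb1 held only when S89G-DMP1 replicate 3 was the library left out, with adjusted p-values from 0.0621 to 0.319 without any of the others (edgeR). Itgb8, the subunit of the integrin that releases TGF-beta in brain, did not pass the test (log2 fold change 0.00, adjusted p = 0.999, edgeR), with 279 ± 4.01 CPM in WT, against 279 ± 16.4 CPM in S89G-DMP1 (SD, n = 3).

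Downstream of the ligands, 4 of 27 tested co-receptors, Smads and targets passed the test (14.8%, against 15.8% of all genes), and all 4 were targets. Of 8 co-receptors and receptor regulators tested, 0 fell and 0 rose by edgeR, DESeq2 or limma on TPM, with a median log2 fold change of 0.03. At an unadjusted p under 0.05 by edgeR 1 was lower and 1 higher, and Pmepa1, a Smad target that restrains the pathway, was the lower one (14.7 ± 2.16 CPM in WT, 10.2 ± 1.16 CPM in S89G-DMP1, SD, n = 3; adjusted p = 0.0775 by edgeR). Of 11 Smads and nuclear partners tested, 0 fell and 0 rose by edgeR, DESeq2 or limma on TPM, none at an unadjusted p under 0.05, with a median of 0.01. Of 22 listed target genes 21 were matched and 8 were tested, of which 2 fell and 2 rose, with a median of -0.09. The extracellular matrix glycoprotein Tnc was highly abundant, at 4475, 4867 and 4735 CPM in WT and 3107, 3044 and 2872 CPM in S89G-DMP1, and fell by 0.64 (adjusted p = 7.8e-19, edgeR). The metalloproteinase Adam12 fell by 0.51 (adjusted p = 8.3e-12, edgeR). The transcription factor Bhlhe40 rose by 0.49 (adjusted p = 2.8e-05) and the vascular growth factor Vegfa by 0.32 (adjusted p = 0.0328) on the log2 scale in the same edgeR fit. The call of Vegfa ended without WT replicate 1 (adjusted p = 0.155), WT replicate 2 (0.0588), S89G-DMP1 replicate 1 (0.131) or S89G-DMP1 replicate 2 (0.14), all by edgeR, and on the authors' TPM values its log2 difference was -0.06. Bhlhe40 was not called by limma on TPM either (adjusted p = 0.181 and 0.182). These lists together with the activin list held 45 tested genes, of which 8 fell and 3 rose, against 8.76% and 7.08% of all genes. A negative log2 fold change was found for 27 of the 45, against 49.4% of all genes, with a median of -0.04.

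**Figure D2:**
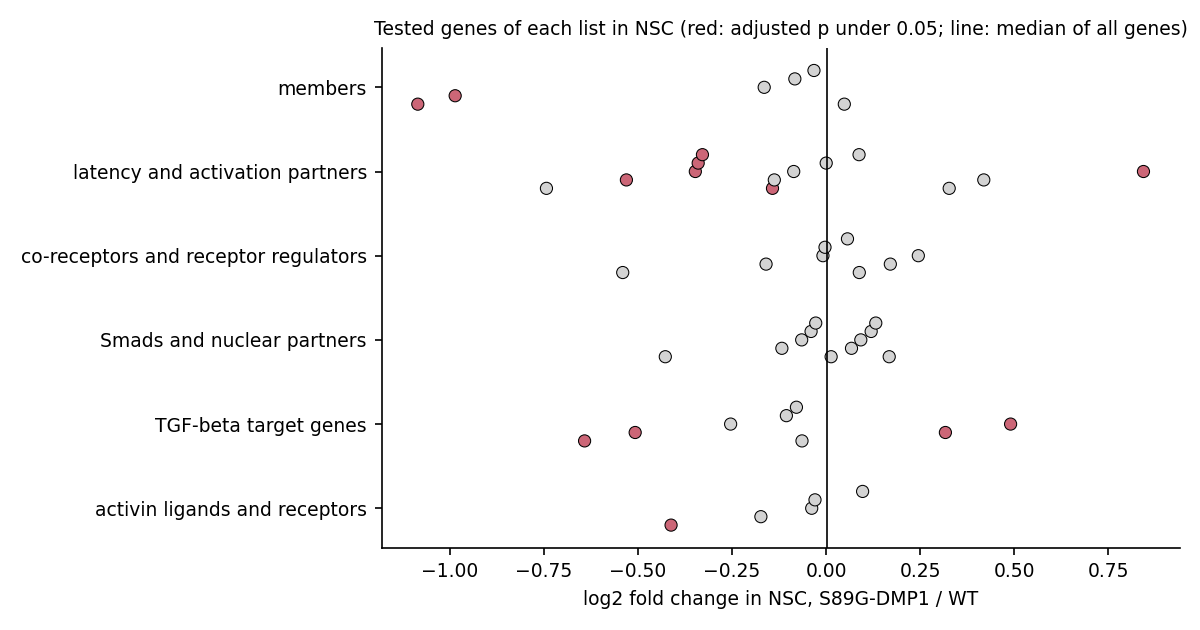
Log2 fold change in NSC of every tested gene on each list (horizontal axis, S89G-DMP1 over WT; each point a gene, spread vertically for view; red, adjusted p under 0.05 by edgeR). Tgfb2 and Ltbp1 at -1.08 and -0.99 stand to the left of every gene on the other lists, and no receptor regulator or Smad is red.

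In the astrocyte libraries there is 1 library per genotype and no test. Values are log2 ratios of scaled CPM with a prior count of 2, and the intervals are 95% exact intervals that cover counting error only. Past 2-fold, 2 of the 9 members were lower and 1 was higher in the S89G-DMP1 library. Of the 15680 genes counted, 12.8% were lower and 17.3% higher by at least 2-fold, 30.1% in all, and the median log2 ratio was 0.01. The median over the 9 members was -0.28.

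Among the ligands, Tgfb3 was higher, with 666 reads (52.6 CPM) in the WT and 2252 reads (156 CPM) in the S89G-DMP1 library, a log2 ratio of 1.57 (interval 1.45 to 1.70) or 2.97-fold. Tgfb1 and Tgfb2 were lower by less than 2-fold. Tgfb1 had 74.9 and 49.0 CPM (log2 ratio -0.61), and Tgfb2 had 64.3 and 41.9 CPM (log2 ratio -0.61). The order of the ligand sums changed with the scaling. They were 117 and 113 CPM per kb as scaled here, 106 and 125 CPM per kb by library size alone, and 192 and 247 CPM without the division by length. The makeup of the sum differed between the libraries. Tgfb1 made up 56.8% of the sum in the WT and 38.7% in the S89G-DMP1 library, Tgfb2 30.0% and 20.3%, and Tgfb3 13.2% and 41.0%. All 3 ligand genes were thus abundant in the astrocyte libraries, where the NSC held almost Tgfb2 alone.

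Ltbp2 was the member that differed most. It had 21718 reads (1715 CPM) in the WT and 1425 reads (98.9 CPM) in the S89G-DMP1 library, a 17.3-fold lower level (log2 ratio -4.11, interval -4.19 to -4.04). D030025P21Rik on the opposite strand shares 764 exonic bases with Ltbp2 and had 75 reads over both libraries, against 23143 for Ltbp2. The ratio of Ltbp2 was at position 166 from the lowest of 15680 genes. Ltbp1 had 411 CPM in the WT and 98.5 CPM in the S89G-DMP1 library, 4.17-fold lower (log2 ratio -2.06, interval -2.15 to -1.98). Ltbp3 differed in the other direction by less than 2-fold, with 311 and 468 CPM (log2 ratio 0.59). Per length, the sum of Ltbp1 to Ltbp3 was 636 CPM per kb in the WT and 144 CPM per kb in the S89G-DMP1 library. Ltbp2 made up 72.8% of it in the WT and 18.5% in the S89G-DMP1 library, and Ltbp3 made up 9.42% and 62.7%. Fibroblast markers went the way of Ltbp1 and Ltbp2 but not of Ltbp3. Of 12 such markers, 11 were lower in the S89G-DMP1 library, 10 of them by at least 2-fold. Their part in these ratios was not tested.

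**Figure D3:**
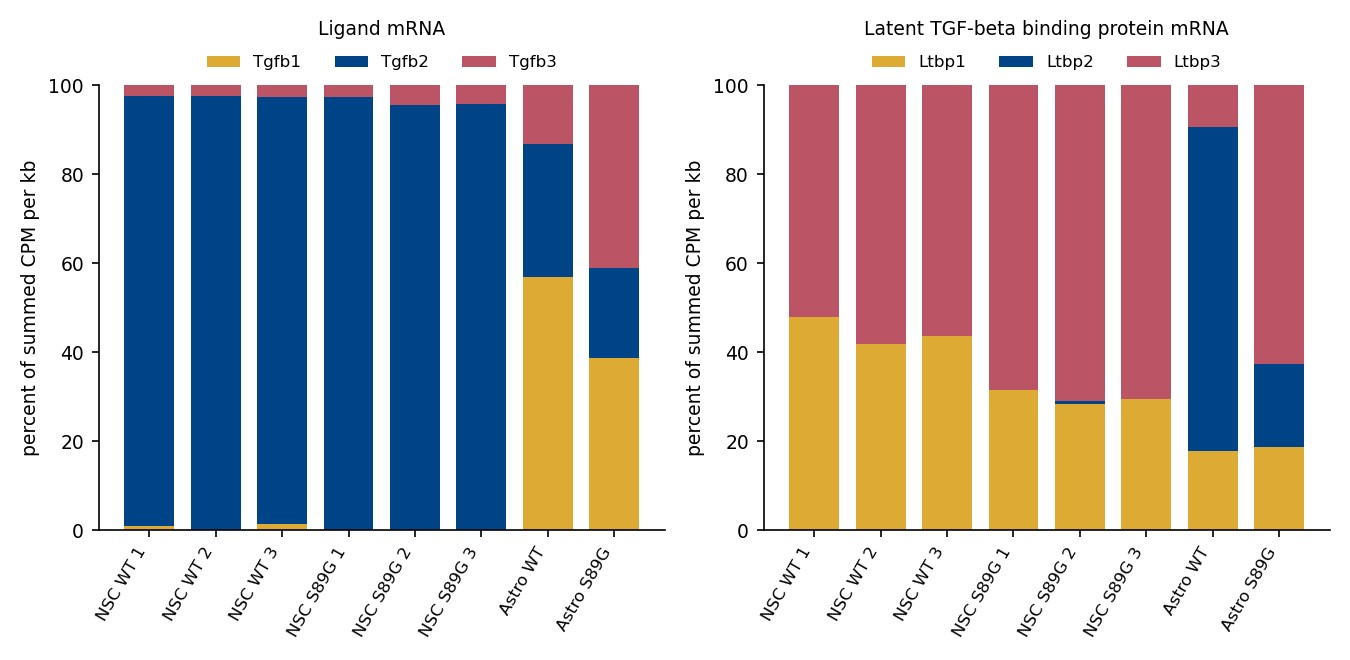
Share of each ligand gene in the summed CPM per kb of the 3 ligands (left) and of Ltbp1, Ltbp2 and Ltbp3 in their own sum (right). Shares are in percent for the 8 libraries (each bar a library), and Ltbp4 is not included. NSC bars are almost all Tgfb2 on the left, and on the right the Ltbp1 share is lower in the 3 S89G-DMP1 NSC libraries, while Ltbp2 goes from 72.8% to 18.5% between the astrocyte libraries.

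Receptors and Smad3 differed by less than 2-fold between the astrocyte libraries. Tgfbr1 had 56.2 CPM in the WT and 85.5 CPM in the S89G-DMP1 library (log2 ratio 0.61, interval 0.47 to 0.74). Tgfbr2 had 274 and 226 CPM (log2 ratio -0.28), but with scaling by library size alone its ratio was 0.02, so no direction is given. That scaling moves the median of all genes from 0.01 to 0.30. Smad3 had 139 and 159 CPM (log2 ratio 0.19, or 0.48 by library size alone). The log2 ratio of Tgfbr1 to Tgfbr2 per length was -1.36 in the WT and -0.48 in the S89G-DMP1 astrocyte library, so Tgfbr2 was the more abundant receptor there. In NSC the same ratio was 3.39 ± 0.26 in WT and 3.50 ± 0.33 in S89G-DMP1 (SD, n = 3; exact permutation p = 0.9), with Tgfbr1 the more abundant. NSC and astrocyte tables were made with different tools, and these levels are set side by side without a test.

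**Figure D4:**
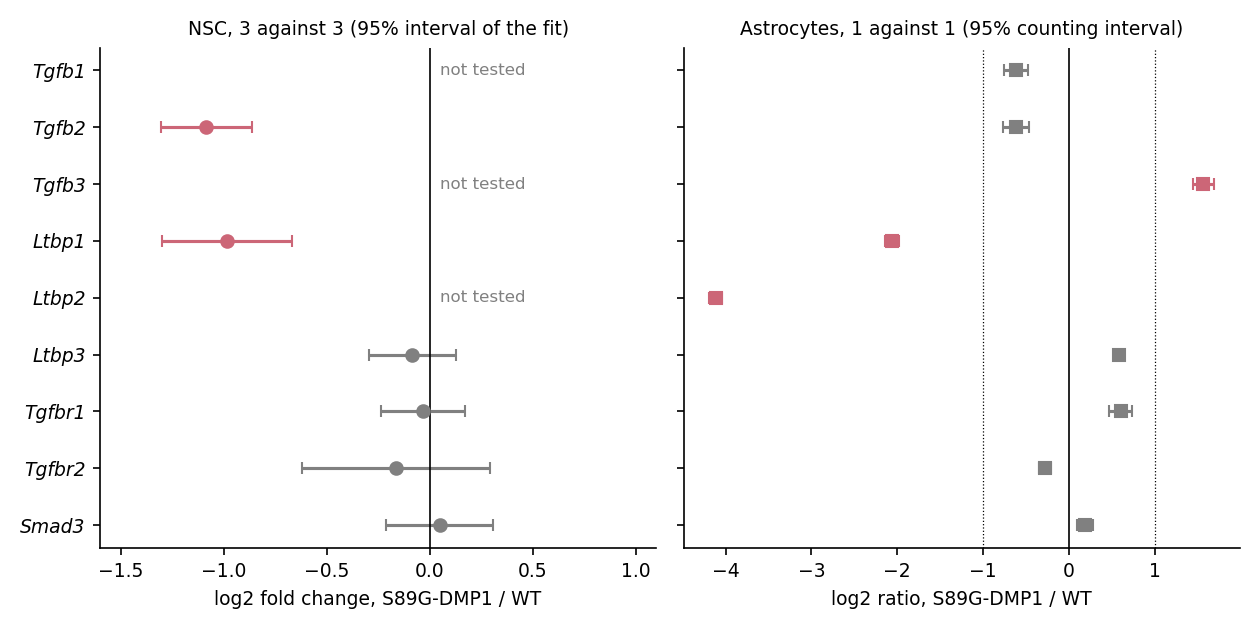
Difference between S89G-DMP1 and WT for each member on the log2 scale, in NSC (left, circles, 95% interval of the edgeR fit, n = 3 per genotype) and in astrocytes (right, squares, 95% counting interval, 1 library per genotype, dotted lines at 2-fold). Ltbp1 is lower on both sides (-0.99 and -2.06), and Tgfb2 is at -1.08 in NSC and -0.61 in astrocytes.

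The order of the members per length also differed between the astrocyte libraries. In the WT library Ltbp2 at 463 CPM per kb was first, then Ltbp1 at 113, Smad3 at 97.7 and Tgfb1 at 66.7 CPM per kb, with Tgfb3 last at 15.5. In the S89G-DMP1 library Smad3 at 111 CPM per kb was first, then Ltbp3 at 90.2, Tgfbr2 at 47.6 and Tgfb3 at 46.2 CPM per kb, with Tgfb2 last at 22.9. Ltbp2 had moved from the first place to the eighth. With 1 library per genotype the spread of these levels is not known.

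Many partners of latent TGF-beta were lower in the S89G-DMP1 astrocyte library. Of 19 counted, 10 were lower and 2 higher by at least 2-fold, against 12.8% and 17.3% of all genes. The median log2 ratio was -1.32. Lrrc32 had 7092 reads in the WT and 163 in the S89G-DMP1 library (log2 ratio -5.61). Emilin1, a matrix glycoprotein that restrains processing of the TGF-beta precursor, had a log2 ratio of -3.35. The gelatinase Mmp2 had a log2 ratio of -2.98, and biglycan (Bgn), a small proteoglycan that binds TGF-beta, had 6361 and 960 CPM (log2 ratio -2.73). The 2 genes that were higher were Fbn2, with 21 and 1573 reads (log2 ratio 5.92), and Itgb8, with 110 and 3544 reads (log2 ratio 4.80). Itgb8 was higher in the same library as most astrocyte markers, of which 9 of 11 counted were higher and 1 lower by at least 2-fold. The 12 listed astrocyte markers summed to 179 CPM in the WT and 1459 CPM in the S89G-DMP1 library.

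Co-receptors also differed in both directions. Of 12 counted, 4 were at least 2-fold lower and 2 higher, against 12.8% and 17.3% of all genes. The median log2 ratio was -0.47. Endoglin (Eng), the co-receptor of vascular cells, had 11770 and 157 reads (log2 ratio -6.39). Acvrl1, the endothelial type I receptor also called ALK1, had 1836 and 76 reads (log2 ratio -4.74). Endothelial markers did not move one way. Of 8 counted, 4 were lower and 3 higher by at least 2-fold. They summed to 203 CPM in the WT and 107 CPM in the S89G-DMP1 library, but without Cdh5, the cadherin of endothelial junctions (1917 and 23 reads), the sums were 51.7 and 106 CPM. The negative regulators Pmepa1 and Smurf2 had log2 ratios of -2.27 and -1.58. Cd109, a co-receptor that restrains signalling, was higher (log2 ratio 2.56), as was the decoy receptor Bambi (log2 ratio 1.59). The part of cell makeup in these ratios was not tested.

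Among 13 Smads and nuclear partners, 2 were at least 2-fold lower, 1 was higher and the median was 0.00. Those lower were the inhibitory Smad7 (184 and 41.5 CPM, log2 ratio -2.15) and Smad6 (160 and 50.4 CPM, log2 ratio -1.67). The gene that was higher, Tgif2, a repressor that binds Smads, had only 15 and 47 reads and is named after its value was seen. Of 21 target genes counted, 11 were at least 2-fold lower and 1 was higher, with a median log2 ratio of -1.24. Snai1, a transcription factor of epithelial-mesenchymal transition, had a log2 ratio of -3.64. Col1a2, a collagen chain, had -3.12, and Timp1, an inhibitor of metalloproteinases, had -2.63. Acta2, smooth muscle actin, was the gene that was higher, with 723 and 2468 CPM (log2 ratio 1.77).

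The target list and the cell type marker lists share 4 genes, Col1a2 and Acta2 among them. Without genes on those marker lists, 9 of 17 counted targets were at least 2-fold lower and 0 higher, with the median again at -1.24. The mural cell markers summed to 2022 CPM in the WT and 2770 CPM in the S89G-DMP1 library, but without Acta2 the sums were 1300 and 302 CPM, with 4 genes lower and 0 higher by at least 2-fold. Rgs5, a defining pericyte gene, had 2431 and 39 reads.

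**Figure D5:**
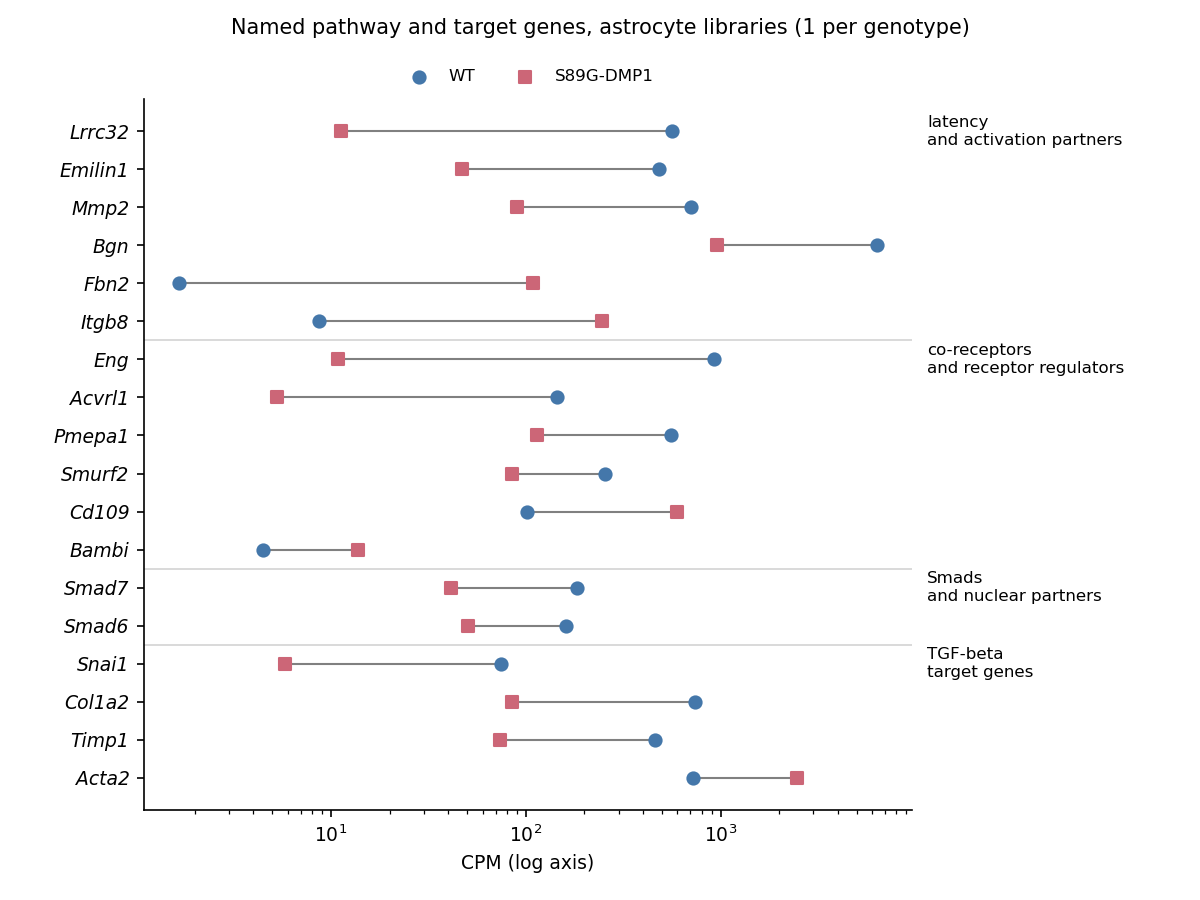
Level in CPM on a log axis of the pathway and target genes named in the text in the WT (circles) and S89G-DMP1 (squares) astrocyte libraries, grouped by list (1 library per genotype, no error). Most squares lie to the left of their circles, with Bgn going from 6361 to 960 CPM, while Fbn2, Itgb8, Cd109, Bambi and Acta2 lie to the right.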

How the data were processed

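Total RNA of NSC and cultured astrocytes was sequenced by the study, and 8 samples were assigned to genotype and cell type by their labels. For both cell types the authors deposited raw read counts per gene, with FPKM values for the astrocytes and TPM values for the NSC. The methods describe read cleaning (adapters, poly-N, low quality) followed by TopHat alignment. Per the submitters' processing notes, TopHat2 2.0.9 and Bowtie2 2.0.6 were named for the astrocyte samples, and HISAT2, StringTie and featureCounts with GRCm38 for the NSC samples. The astrocyte genome build, the counting strand and, for the astrocytes, the counting program were not given in the sources used here. The deposited FPKM values are counts divided by the library total and by 1 length per gene, and those lengths were used for levels per length. In the deposited TPM values 143 well-counted NSC genes were listed at 0 in some library, none a member, so counts were used.

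NSC counts were filtered with filterByExpr, scaled by TMM (factors 0.999 to 1.00) and fitted by genotype alone with the quasi-likelihood test of edgeR 4.0.16 (R 4.3.3). A Benjamini-Hochberg adjusted p under 0.05 was called. The common biological coefficient of variation was 0.037. Shares were compared by exact two-sided permutation. Astrocyte ratios used CPM scaled by TMM, a prior count of 2, and genes that reached 10 counts in a library. On simulated counts of 11202 genes for the NSC design, 88 of 98 tested 2-fold changes and 69 of 99 tested changes of 0.5 on the log2 scale were called, and 9 of 11005 unchanged genes. Every pair of NSC libraries differed by more than sampling noise in a chi-square test over 11136 genes, but libraries of a genotype did so by little. The chi-square per gene, near 1 for sampling noise alone, was 1.07 to 1.51 within a genotype. Between genotypes it was 3.17 to 4.06. Counting error limits genes under about 10 reads in the NSC and is the only error known for the astrocytes.

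The members and lists were chosen with earlier results of these data known. All members are named, and for other lists up to 4 genes per list and direction with the largest change among those that passed (in astrocytes, with at least 50 counts), and the 3 genes most like Tgfb2. Some genes that this rule would name, or that overlap a member, are not reported here. Symbols were matched through gene tables, and 1 of 173 listed symbols did not match. Promoters matched 8 of the 9 members. Alternatives were other scalings and filters, DESeq2 1.42.0, limma 3.58.1 on TPM, a replicate block, leaving out each library, other prior counts, FPKM and a 4-fold limit.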

Additional observations from a re-analysis of the deposited data

Results flagged for a closer look

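Among the members, Dmp1 and the genes named for NSC from the pathway and target lists, those that passed the test in NSC and lay on the opposite side of 0 between the astrocyte libraries were marked, since every NSC library moved one way and the astrocyte pair the other. The difference itself was not tested, and the astrocyte side rests on 1 library per genotype. Dmp1 fell by 1.90 on the log2 scale in NSC and had 2 and 119 reads in astrocytes (log2 ratio 4.78, counting interval 3.82 to 8.77). Fbn2 fell by 0.34 on the log2 scale in NSC and had a log2 ratio of 5.92 in astrocytes. Lrrc32 rose by 0.84 in NSC and had a log2 ratio of -5.61 in astrocytes. Vegfa rose by 0.32 in NSC and had a log2 ratio of -2.02 in astrocytes. Tnc fell by 0.64 in NSC and had a log2 ratio of 0.496 in astrocytes. Bhlhe40 rose by 0.49 in NSC and had a log2 ratio of -0.467 in astrocytes, or -0.18 with scaling by library size alone. None of the 9 members was marked.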

How the results depend on the processing

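Tgfb2 was lower and past the threshold in NSC under every alternative run. With 1 library left out its log2 fold change ranged from -1.16 to -1.01, with a largest adjusted p of 4.79e-09 by edgeR. Ltbp1 lost its call only in limma on log2(TPM + 0.1), which left 1 member called lower. With DESeq2 the pathway and target lists together held 5 genes called lower and 1 higher. Leaving out 1 library gave 7 to 8 lower and 1 to 3 higher, and without WT replicate 1 the number higher was 1. Same-numbered NSC libraries did not deviate together (correlations of 0.028, -0.0099 and -0.017), so the numbers were taken as names only. With the replicate block, 2 members were called lower and 829 and 1016 genes overall rose and fell, and it changed no call among the members. In astrocytes, 0 members were higher at a limit of 4-fold. Scaling by library size alone counted 3487 genes at least 2-fold higher and 1515 lower, against 2713 and 2010. With genes on the marker lists left out, a choice made after seeing the data, 27 genes of the lists were at least 2-fold lower and 8 higher, against 30 and 9. DESeq2 ended the calls of Fbn1, Itgb1, Lrrc32, Vegfa and Gdf11, with adjusted p-values from 0.105 to 0.361. Over all genes in NSC, DESeq2 called 321 higher and 424 lower against 792 and 981 by edgeR, limma on log2(TPM + 1) 38 and 107, and limma on log2(TPM + 0.1) 31 and 85. Astrocyte counts carry no replicate error, and Tgfb1, Tgfb3 and Ltbp2 were below the depth needed in NSC.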

Other observations

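Activins, sister ligands of TGF-beta that signal through the same Smads, were followed in the same libraries. In NSC 5 of 12 listed genes were tested and 1 fell by edgeR, while 0 passed by DESeq2. Over all genes 8.76% fell and 7.08% rose by edgeR. The gene that fell was Gdf11, a ligand known to restrain neurogenesis, with 59.8, 57.5 and 66.7 CPM in WT and 43.8, 48.4 and 46.1 CPM in S89G-DMP1. All S89G-DMP1 libraries were below all WT libraries, and Gdf11 fell by 0.41 on the log2 scale (SE 0.11, adjusted p = 0.00397, quasi-likelihood test of edgeR, Benjamini-Hochberg adjusted). Neither limma fit of the TPM values called Gdf11 (adjusted p = 0.278 with a pseudocount of 1 and 0.281 with 0.1). Its log2 differences there were -1.87 and -2.03.

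In the astrocyte libraries 10 genes of the list were counted, 3 at least 2-fold lower and 3 higher in the S89G-DMP1 library. Over all genes 12.8% were lower and 17.3% higher by at least 2-fold. Gdf11 had a log2 ratio of -1.36. Inhba, the activin A subunit, had 1993 and 469 reads (log2 ratio -2.27), and Inhbb, the activin B subunit, had 66 and 166 reads (log2 ratio 1.12). The binding proteins that block activin were also split, with 432 and 19 reads for Fstl3 (log2 ratio -4.55) and 326 and 809 reads for follistatin (Fst, log2 ratio 1.12). Acvr1c, the other gene that was higher, had only 2 and 10 reads and is named after its value was seen. Among other markers in these libraries, microglia markers summed to 696 CPM in the WT and 971 CPM in the S89G-DMP1 library, oligodendrocyte markers to 49.6 and 91.9 CPM, neuron markers to 97.8 and 301 CPM, and neural progenitor markers to 734 and 2135 CPM.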
